A study of Homo sapiens with 12 samples.

Results

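TGF-beta and activin signalling was followed through 10 genes in LPS-stimulated THP-1 macrophages: the ligand genes TGFB1 and INHBA, the receptor genes TGFBR1, TGFBR2 and ACVR1, the signal transducers SMAD2, SMAD3 and SMAD4, and the inhibitors SMAD7 and SKIL. They were chosen by symbol, with earlier results of these data known. Each matched a single Ensembl gene among the 58735 genes of the count table. All 10 passed the filter on low counts, which 15471 genes passed. THP-1 is a human monocytic leukaemia line that can be given a macrophage phenotype. The miR-122-5p group (6 libraries) received a mimic of miR-122-5p, and the control mimic group (6 libraries) a control microRNA mimic. In both groups the mimic was transfected at 30 nM with RNAiMAX for 24 h, and after a rest the cells were stimulated for 4 h with LPS, the bacterial lipopolysaccharide sensed by TLR4. No group was left without LPS or without transfection. Whether the 6 libraries of a group are separate cultures is not stated in the labels, and the spread behind each p-value may be technical only. The title of the series places the work in Behçet's disease and neutrophil-derived exosomes.

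Ligands of the TGF-beta family are secreted dimers that bind a type II and a type I serine/threonine kinase receptor on the same cell. The type I receptor phosphorylates a receptor-regulated SMAD, which joins SMAD4, enters the nucleus and changes transcription there. TGF-beta and activin use SMAD2 and SMAD3, whereas bone morphogenetic proteins (BMPs) use SMAD1, SMAD5 and SMAD9. In macrophages, TGF-beta is known for restraining inflammatory gene expression, and activin A, the dimer of INHBA products, is known as a cytokine induced by LPS.

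Because a microRNA acts through short matches in 3′ untranslated regions (UTRs), the 10 transcripts were searched for sites of miR-122-5p. The mature microRNA is shown first with its seed, bases 2 to 8, in capitals. A 7-base site of each gene that holds one follows, then the 6-base pair of TGFB1. In the sites, capitals mark the bases that match the seed, with the A opposite base 1 where it is present.
miR-122-5p: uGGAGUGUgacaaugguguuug
ACVR1 7mer-m8: ttcacaagtctcctagACACTCCccacggg
SMAD2 7mer-m8: tggcggtcgggcagagACACTCCtcacatc
SMAD3 7mer-A1: ccccgccccgccccacCACTCCAgcagacc
TGFB1 6mer, first copy: atccctgacgttccccCACTCCcactccc
TGFB1 6mer, second copy: gacgttcccccactccCACTCCctctctc

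In hg38 the ACVR1 window lies at chr2:157737171-157737200 on the minus strand, the SMAD2 window at chr18:47828063-47828092 on the minus strand, and the SMAD3 window at chr15:67191041-67191070 on the plus strand. The overlapping TGFB1 windows lie at chr19:41330844-41330872 and chr19:41330838-41330866 on the minus strand. The microRNA sequence is that of RefSeq (GRCh38.p14) and the sites were read from GENCODE 29 transcripts. The motifs searched on the transcript strand were the 6-base core CACTCC, the 7-base forms ACACTCC (7mer-m8) and CACTCCA (7mer-A1) and the 8-base form ACACTCCA, each longer form containing the core and counted once as the longest. In the longest annotated 3′ UTR, 3 of the 10 genes held a 7-base site (ACVR1, SMAD2 and SMAD3), and no member held the 8-base form. A 7-base or 8-base site was present in 25.7% of the 12888 tested genes with an annotated 3′ UTR, whose median length was 1593 bases against 4477 bases for the 10 genes. SMAD2 held 4 such sites in a UTR of 32870 bases, and only 1 of its 5 distinct annotated UTRs held any. Likewise 1 of 5 distinct UTRs of SMAD3 and 2 of 3 of ACVR1 held a site. TGFB1, TGFBR2 and SKIL held 6-base matches only. INHBA, TGFBR1, SMAD4 and SMAD7 held no match to the 6-base core in these UTRs. A match is a description of sequence, and which UTR these cells use was not measured.

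Libraries held 29473750 to 35684464 counts in the miR-122-5p group and 31019890 to 39468157 in the control mimic group. Summed over 10 genes, macrophage markers were abundant. The sums were 2979 to 3424 library-size-scaled counts (CPM) with miR-122-5p and 3002 to 3460 CPM with the control mimic. LYZ and CD14 added little to them. LYZ averaged 11.2 CPM with miR-122-5p and 10.5 CPM with the control mimic, and CD14 averaged 13.6 and 17.8 CPM in that order. An antisense gene overlaps 34% of the exon length of LYZ. CD68 stood near 0 (0.239 and 0.216 CPM), and 85.8% of its exon length overlaps other annotated genes. Single macrophage markers moved in both directions: PTPRC (the leukocyte antigen CD45) had 80.03 ± 10.2 CPM with miR-122-5p and 185 ± 14.7 CPM with the control mimic (log2 fold change -1.21, edgeR adjusted p = 8.85e-11), CD14, FCER1G and CSF1R were lower (-0.39, -0.38 and -0.36), ITGAX was lower (-0.19), and TYROBP and ITGAM were higher (0.30 and 0.19). Their part in the results below was not tested. T cell and epithelial markers such as CD3E and EPCAM were at 0, and 5 epithelial markers together reached 0.0837 to 0.755 CPM with miR-122-5p and 0.116 to 1.06 CPM with the control mimic. The 6 fibroblast markers summed to 7.003 to 9.52 CPM and 5.49 to 8.36 CPM, and the 6 T and B cell markers to 3.36 to 4.24 CPM and 2.01 to 3.53 CPM, in the same order of groups; 4 and 5 of these markers averaged under 1 CPM over all libraries. Of the neutrophil markers, ELANE averaged 549 ± 61.6 CPM with miR-122-5p and 562 ± 71.2 CPM with the control mimic, CSF3R averaged 28.7 ± 2.22 and 32.9 ± 5.49 CPM in the same order, and FCGR3B, MPO and CXCR2 were under 1 CPM. Control libraries also differed from miR-122-5p libraries in a trend with the GC content of transcripts. Relative to the mean of all libraries, log2 CPM changed by 0.0336 to 0.229 per 10 percentage points of GC in miR-122-5p libraries and by -0.318 to 0.0118 in control libraries, without overlap. Among tested genes, the fifth richest in GC had a median log2 fold change of 0.39 and the fifth poorest one of -0.30. Fold changes of the 10 genes are therefore also given after correction for this trend.

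Of the 10 genes, 8 changed in the miR-122-5p group: 2 were higher (TGFBR1, SMAD7) and 6 lower (INHBA, ACVR1, SMAD2, SMAD3, SMAD4, SKIL) at an adjusted p under 0.05 in edgeR's quasi-likelihood test. TGFB1 and TGFBR2 were not called. In these bulk libraries fewer cells of a type and less RNA per cell cannot be told apart. Over all tested genes, 50.5% were called, 24.3% higher and 26.2% lower. The median log2 fold change was -0.23 over the 10 genes and 0.01 over all tested genes, and after correction for GC content and transcript length -0.05 and 0.03. The groups did not overlap for 3 of the 10 (INHBA, TGFBR1, SMAD3), against 29.5% of all tested genes (13.4% higher and 16.1% lower). Those 3 also kept their calls in each of the 24 alternative fits at that threshold, whereas the other 5 calls ended in at least 3 of them.

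**Figure D1:**
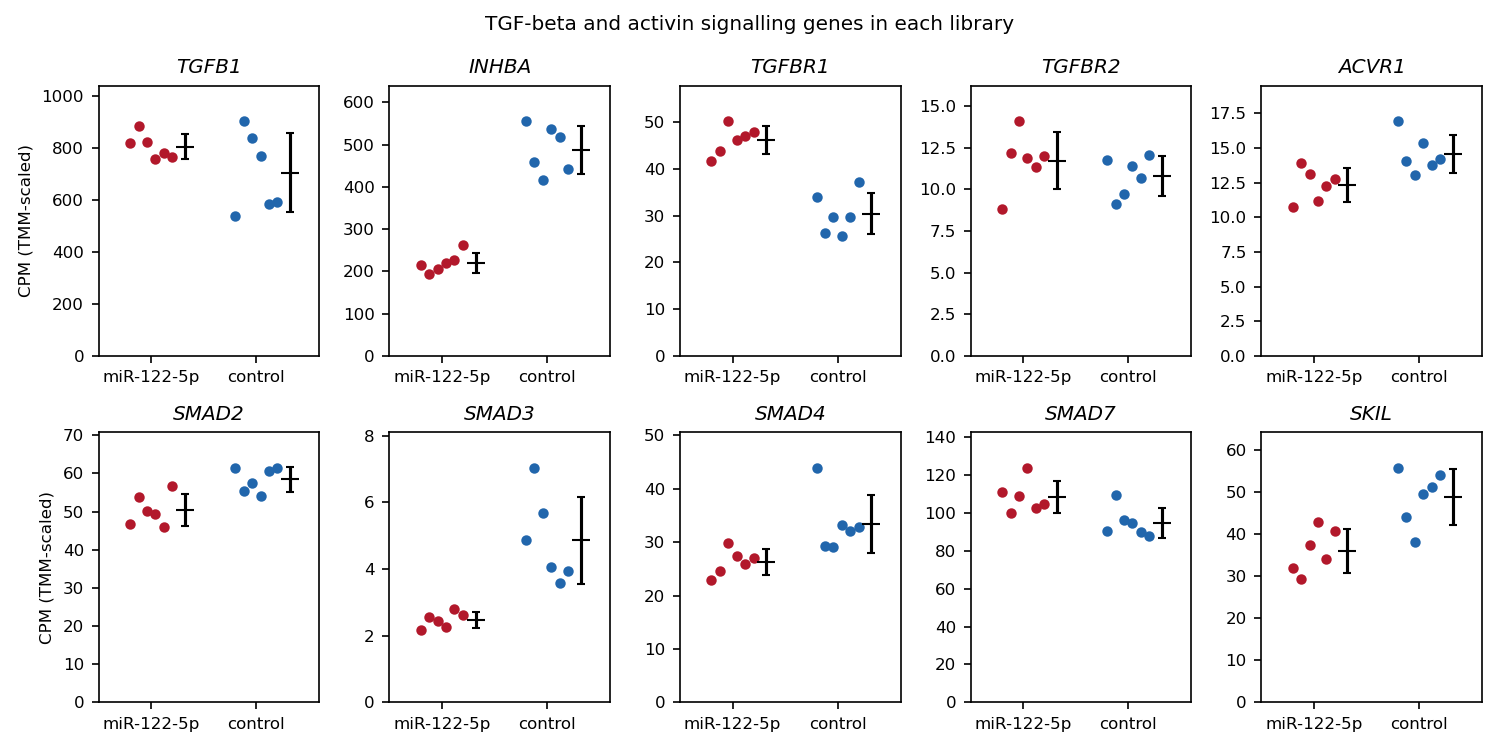
Level of each of the 10 genes in every library, in CPM scaled by TMM factors, with 6 miR-122-5p libraries (red) left of 6 control mimic libraries (blue); the bar beside each group is its mean ± SD. INHBA, TGFBR1 and SMAD3 separate the groups, TGFB1 splits the control libraries into 3 low and 3 high, and the other genes overlap.

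INHBA (ENSG00000122641, chromosome 7, 41667168 to 41705834) encodes the beta A subunit of activin A and of inhibin A. Its level ran from 194 to 263 CPM with miR-122-5p (median 217.1) and from 416 to 555 CPM with the control mimic (median 488). Every miR-122-5p library was below every control library. The mean was 221 ± 23.6 CPM with miR-122-5p and 488 ± 56.3 CPM with the control mimic (SD, n = 6 each), a log2 fold change of -1.14 ± 0.08 (SE; edgeR adjusted p = 3.31e-10), or 2.21-fold lower. Without correction, a called fall of at least 2-fold was found in 5.55% of all tested genes. INHBA is poor in GC (39.12%), in the class of genes whose median log2 fold change was -0.30. After removal of each library's trends with GC content and transcript length the change was -0.83 (edgeR adjusted p = 1.24e-09), and with the GC slope of each library as a covariate it was -0.88 (edgeR adjusted p = 1.82e-05).

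TGFB1 (ENSG00000105329, chromosome 19, 41301587 to 41353911) encodes TGF-beta 1 and was the most abundant of the 10. It ran from 757 to 886 CPM with miR-122-5p (median 800.3) and from 540.1 to 904 CPM with the control mimic (median 680.3). The miR-122-5p libraries lay close together inside the wide range of the controls. Control libraries 1, 5 and 6, at 540.1, 587 and 592 CPM, were below every other library, and they are the 3 libraries with the lowest GC slope. TGFB1 has a GC content of 63.5%, the highest of the 10 genes. Means were 806 ± 48.2 CPM with miR-122-5p and 705 ± 152 CPM with the control mimic (SD, n = 6 each), and the log2 fold change was 0.19 ± 0.10 (SE; edgeR adjusted p = 0.136). It was called higher without the filter on low counts (edgeR adjusted p = 0.0341) and without control library 2 (edgeR adjusted p = 0.0208). Its direction turned after correction for GC content and length (-0.19, edgeR adjusted p = 0.0105) and with the GC slope covariate (-0.40, edgeR adjusted p = 0.00888). Without control libraries 1, 5 and 6 it was -0.06 (edgeR adjusted p = 0.523). Those libraries hold the lowest TGFB1 values, so a lower fold change follows from leaving them out. Exons of HNRNPUL1 on the opposite strand overlap 6.64% of its exon length, and the strand setting of the counting is not given in the sources used here.

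**Figure D2:**
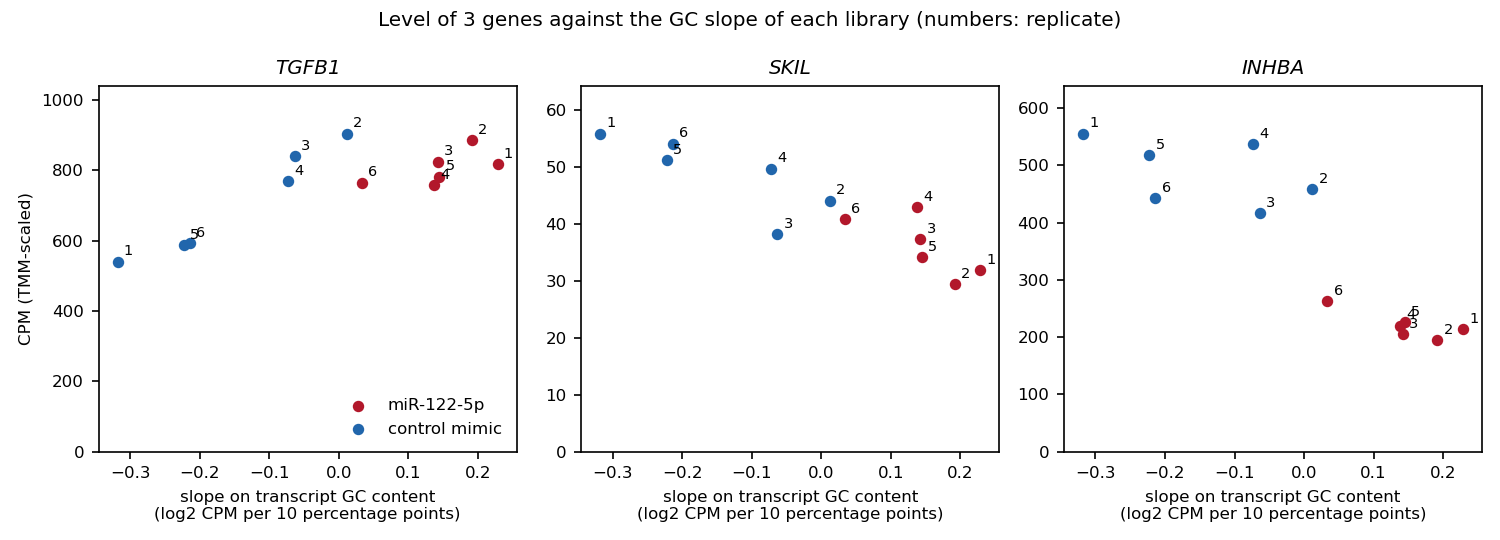
CPM of TGFB1, SKIL and INHBA against the GC slope of each library (log2 CPM per 10 percentage points of transcript GC, relative to the mean of the libraries), with replicate numbers beside the points; miR-122-5p is red and control mimic blue. TGFB1 is lowest and SKIL highest in the control libraries of lowest slope, and INHBA is lower in every miR-122-5p library than in every control library. Groups were not compared at matched slopes.

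Among the receptors, TGFBR1 rose. TGFBR1 (ENSG00000106799, chromosome 9, 99104038 to 99154192) encodes the type I receptor of TGF-beta, the kinase that phosphorylates SMAD2 and SMAD3. It ran from 41.7 to 50.2 CPM with miR-122-5p (median 46.6) and from 25.6 to 37.1 CPM with the control mimic (median 29.7). No library of one group reached the range of the other. The mean was 46.2 ± 3.03 CPM with miR-122-5p and 30.4 ± 4.45 CPM with the control mimic (SD, n = 6 each), and the log2 fold change was 0.60 ± 0.09 (SE; edgeR adjusted p = 8.51e-06), or 1.52-fold higher. TGFBR1 is poor in GC (38.95%), in the class of genes whose median was -0.30. Its rise was larger after correction for GC content and length (0.92, edgeR adjusted p = 1.37e-10) and with the GC slope covariate (0.97, edgeR adjusted p = 1.09e-05).

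TGFBR2 (ENSG00000163513, chromosome 3, 30606502 to 30694142) encodes the type II receptor, which binds TGF-beta first and then recruits TGFBR1. Its range was 8.79 to 14.1 CPM with miR-122-5p (median 11.9) and 9.10 to 12.03 CPM with the control mimic (median 11.1). The control range lay within the miR-122-5p range. The log2 fold change was 0.12 ± 0.11 (SE; edgeR adjusted p = 0.404), and 0 of the 24 alternative fits called it, with 0.22 (edgeR adjusted p = 0.0776) after correction for GC content and length and 0.44 (edgeR adjusted p = 0.115) with the covariate. ACVR1 (ENSG00000115170, chromosome 2, 157736444 to 157875862) encodes ALK2, a type I receptor that signals mainly for BMPs and can also bind activin A. It carries the 7mer-m8 site printed above. ACVR1 ran from 10.7 to 13.9 CPM with miR-122-5p (median 12.5) and from 13.1 to 16.9 CPM with the control mimic (median 14.1), and the ranges overlapped. Its fall of 0.24 ± 0.09 on the log2 scale (SE; edgeR adjusted p = 0.0380) was small, and the call ended after correction for GC content and length (-0.06, edgeR adjusted p = 0.597), with the covariate (-0.07, edgeR adjusted p = 0.825), without any of 6 single libraries (edgeR adjusted p 0.0502 to 0.0997) and in 6 other fits.

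SMAD3 (ENSG00000166949, chromosome 15, 67063763 to 67195195) showed the largest change among the signal transducers. It encodes a receptor-regulated SMAD that binds DNA directly. Its level was low throughout, from 2.18 to 2.82 CPM with miR-122-5p (median 2.50) and from 3.59 to 7.04 CPM with the control mimic (median 4.46), and its count in a library lay between 72 and 226. All miR-122-5p libraries were below all controls. The mean was 2.48 ± 0.235 CPM with miR-122-5p and 4.86 ± 1.31 CPM with the control mimic (SD, n = 6 each), a log2 fold change of -0.97 ± 0.17 (SE; edgeR adjusted p = 7.10e-05), or 1.96-fold lower. Its change was -0.94 after correction for GC content and length (edgeR adjusted p = 5.97e-05) and -1.33 with the GC slope covariate (edgeR adjusted p = 0.00173). SMAD3 carries the 7mer-A1 site printed above in its longest UTR.

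SMAD2 (ENSG00000175387, chromosome 18, 47808957 to 47931146), the partner of SMAD3 downstream of the same receptors, ran from 45.9 to 56.7 CPM with miR-122-5p (median 49.8) and from 53.9 to 61.5 CPM with the control mimic (median 59.1). The ranges overlapped. SMAD2 fell by 0.21 ± 0.07 on the log2 scale (SE; edgeR adjusted p = 0.0163). Its direction turned after correction for GC content and length (0.13, edgeR adjusted p = 0.0946), a correction that for SMAD2 rests on an annotated transcript of 34526 bases, and the covariate brought it to -0.01 (edgeR adjusted p = 0.957). SMAD2 was not called when miR-122-5p library 5 was left out (edgeR adjusted p = 0.0582). SMAD4 (ENSG00000141646, chromosome 18, 51028394 to 51085045), the common partner of all receptor-regulated SMADs, ran from 22.9 to 29.9 CPM with miR-122-5p (median 26.5) and from 29.03 to 43.95 CPM with the control mimic (median 32.4). Only miR-122-5p library 3 reached the control range, and control library 1 stood above all others. The fall of 0.34 ± 0.10 (SE; edgeR adjusted p = 0.00545) was 0.25 without control library 1 (edgeR adjusted p = 0.0137). Its call ended after correction for GC content and length (-0.06, edgeR adjusted p = 0.529), and with the covariate the sign turned (0.07, edgeR adjusted p = 0.782). An annotated gene on the same strand overlaps 7.37% of the exon length of SMAD4.

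The inhibitors SMAD7 and SKIL are themselves induced by SMAD3 and SMAD4 as negative feedback. SMAD7 (ENSG00000101665, chromosome 18, 48919853 to 48952052) blocks receptors and recruits ubiquitin ligases to them. SMAD7 ran from 99.99 to 124 CPM with miR-122-5p (median 106.7) and from 87.5 to 109.5 CPM with the control mimic (median 92.5). Control library 2 alone reached the miR-122-5p range. The rise of 0.20 ± 0.07 on the log2 scale (SE; edgeR adjusted p = 0.0269) came to -0.03 after correction for GC content and length (edgeR adjusted p = 0.711) and 0.01 with the covariate (edgeR adjusted p = 0.953). SMAD7 was not called when miR-122-5p library 4 (edgeR adjusted p = 0.0699), control mimic library 5 (0.0580) or control mimic library 6 (0.0555) was left out. SKIL (ENSG00000136603, chromosome 3, 170357678 to 170396835) encodes SnoN, a corepressor that binds SMAD complexes. SKIL ran from 29.5 to 43.0 CPM with miR-122-5p (median 35.8) and from 38.2 to 55.9 CPM with the control mimic (median 50.5). The ranges overlapped, with the lowest values in miR-122-5p libraries 1 and 2. Its fall of 0.44 ± 0.10 (SE; edgeR adjusted p = 0.00113) was -0.03 after correction for GC content and length (edgeR adjusted p = 0.773) and -0.002 with the covariate (edgeR adjusted p = 0.995). SKIL has the lowest GC content of the 10 genes, 33.4%.

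After correction for GC content and length, 4 of the 10 genes were called, TGFBR1 higher and TGFB1, INHBA and SMAD3 lower. TGFB1 had not been called without correction. Of all tested genes 46.8% were called after this correction, 23.3% higher and 23.5% lower. The GC slope covariate called the same 4 in the same directions, where 19.4% of all tested genes were called, 7.22% higher and 12.2% lower (37.2% of the calls higher, against 48.1% without the covariate). Because the GC slopes of the groups do not overlap, slope and group cannot be fully told apart in that fit. The correction for GC content and length shares this limit. Its trends were fitted to each library without the group, so a group difference that runs with GC content or length is also removed. With control libraries 1, 5 and 6 left out, an alternative added once the data had been seen, 4 were called (TGFBR1 higher, INHBA, SMAD3 and SKIL lower), where 43% of tested genes were called, 20.6% higher and 22.4% lower. INHBA, TGFBR1 and SMAD3 are the genes called under all 3 of these settings and without any correction. Of the 8 genes called without correction, only those 3 stayed called after correction for GC content and length, and likewise with the covariate. Among all 7810 called genes, 70.2% and 32.4% stayed called in the same direction.

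**Figure D3:**
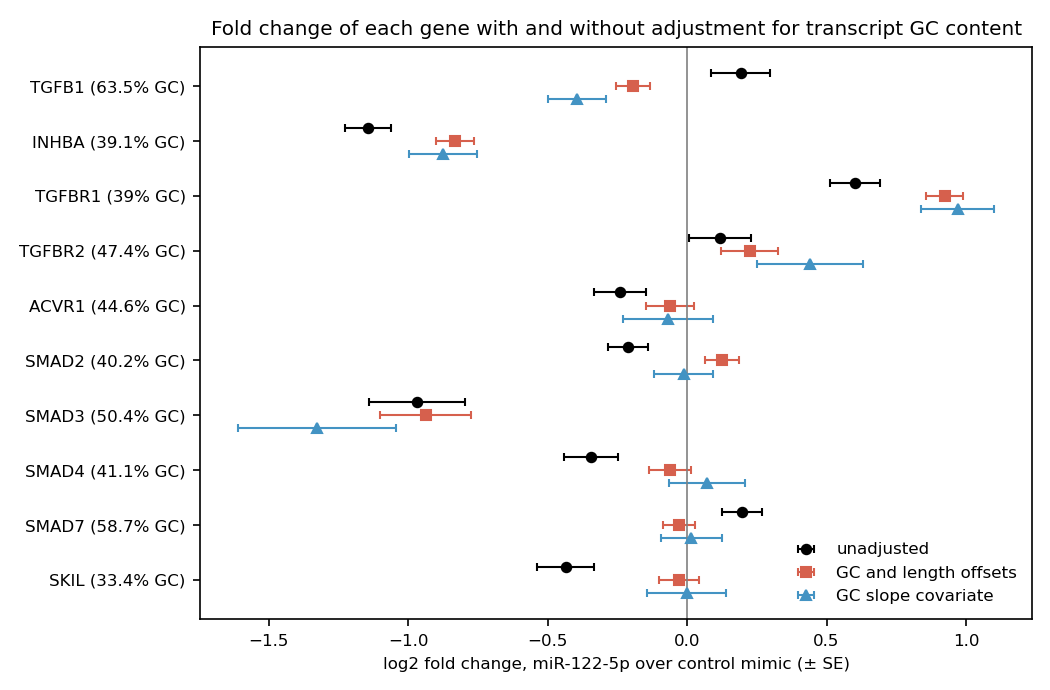
Log2 fold change (miR-122-5p over control mimic, ± SE) of the 10 genes without correction (black circles), after correction for each library's trend with transcript GC content and length (red squares) and with the GC slope of each library as a covariate (blue triangles); the GC content of the longest transcript stands beside each name. INHBA, TGFBR1 and SMAD3 keep their side of 0, TGFB1 moves from 0.19 to -0.19 and -0.40, and SKIL moves from -0.44 to near 0.

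Levels can be compared between genes only per length. In CPM per kilobase of annotated exon, TGFB1 was highest (249 ± 14.9 in miR-122-5p libraries and 218 ± 47.1 in control libraries, SD, n = 6 each), followed by INHBA (26.6 ± 2.84 and 58.8 ± 6.79) and SMAD7 (21.6 ± 1.69 and 18.8 ± 1.57). INHBA and SMAD7 overlapped with miR-122-5p (23.4 to 31.7 and 19.9 to 24.6) and were apart with the control mimic (50.1 to 66.9 and 17.4 to 21.8). TGFBR1 stood above SKIL with miR-122-5p (6.75 ± 0.443 against 4.64 ± 0.670) and below it with the control mimic (4.45 ± 0.650 against 6.28 ± 0.852), where their ranges overlapped. Below them came ACVR1, TGFBR2 and SMAD4, with means between 2.01 and 3.65, of which SMAD4 and TGFBR2 overlapped in both groups. SMAD2 had 1.39 ± 0.114 and 1.61 ± 0.0895, lowered by the 36366 bases of exon annotated for it. SMAD3 was lowest, at 0.272 ± 0.0258 in miR-122-5p libraries and 0.534 ± 0.144 in control libraries.

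Genes with the profile most like each ligand were sought among 8335 other genes, by the root mean square difference of centred log2 CPM over the 12 libraries. For TGFB1 they were PLCG1 (0.0563), HSF1 (0.0845) and SPI1 (0.0904), where the median over all genes compared was 0.322. For INHBA they were OGFRL1 (0.0826), NT5C2 (0.0863) and MFN1 (0.0890), against a median of 0.597. The log2 fold changes of these last 3 were -1.09, -1.09 and -1.19, and those of PLCG1, HSF1 and SPI1 were 0.23, 0.23 and 0.17. The difference between groups entered the measure, so fold changes near that of the ligand follow from the choice of genes.

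The rest of the pathway was described with 8 lists written from general knowledge, holding 105 genes that were tested. BMP1, which the ligand list held for its name, encodes a procollagen proteinase and is left out of the ligands here. Among the 12 tested other ligands of the family, 6 were higher and 2 lower (median log2 fold change 0.35), and 4 and 3 after correction for GC content and length (median 0.23). INHBB, the beta B subunit of activin B, rose by 1.41 ± 0.16 (10.1 ± 1.18 CPM with miR-122-5p and 3.80 ± 1.08 CPM with the control mimic; edgeR adjusted p = 2.58e-07), in the direction opposite to INHBA. The stress-induced ligand GDF15 rose by 0.58 ± 0.07, and that call ended after correction for GC content and length (0.14, edgeR adjusted p = 0.0531). BMP6 fell by 0.78 ± 0.15 (8.70 ± 1.91 CPM with miR-122-5p and 15.0 ± 3.67 CPM with the control mimic; edgeR adjusted p = 0.000238). TGFB2 and TGFB3 averaged at most 2.27 CPM in either group and were not called.

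TGF-beta is secreted in a latent complex. Of 14 tested genes of latency and activation, 7 were higher and 4 lower (median 0.20), and 5 and 5 after that correction (median -0.0044). The latent TGF-beta binding proteins LTBP4 and LTBP2 rose by 0.69 ± 0.09 and 0.60 ± 0.09. NRROS and LRRC32, membrane proteins that hold latent TGF-beta on macrophages and on regulatory T cells and platelets, fell by 0.84 ± 0.09 (32.6 ± 3.49 CPM with miR-122-5p and 58.4 ± 6.43 CPM with the control mimic; edgeR adjusted p = 7.27e-08) and by 0.70 ± 0.11. After correction for GC content and length LTBP4 was at 0.18 and NRROS at -1.13.

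Of 11 tested other receptors, 1 was higher and 5 lower (median -0.06), and 2 and 5 after correction for GC content and length (median -0.12). BMPR2, a type II receptor for BMPs, fell by 1.27 ± 0.09 (16.2 ± 1.47 CPM with miR-122-5p and 38.9 ± 4.45 CPM with the control mimic; edgeR adjusted p = 2.07e-10), and ACVRL1, the type I receptor ALK1, by 0.81 ± 0.07. ACVR2A, a type II receptor for activins, rose by 0.24 ± 0.09 (edgeR adjusted p = 0.0318; 0.56 after correction for GC content and length), and was not called when miR-122-5p library 6 (0.0674), control mimic library 3 (0.0595) or control mimic library 5 (0.0858) was left out. Of 7 tested antagonists, 2 were higher and 4 lower (median -0.98), and 3 and 4 after the correction (median -0.78). GREM1, counted among the lower, was near 0, at 0.063 CPM with miR-122-5p and 0.398 CPM with the control mimic. FSTL3, an activin-binding protein, rose by 1.45 ± 0.15 (9.13 ± 1.17 CPM with miR-122-5p and 3.32 ± 0.828 CPM with the control mimic), and the BMP antagonist NBL1 by 0.77 ± 0.12 (0.97 and 0.30 after the correction). BAMBI, a pseudoreceptor that dampens TGF-beta signalling, fell by 1.27 ± 0.09 (10.2 ± 1.11 CPM with miR-122-5p and 24.4 ± 2.11 CPM with the control mimic; edgeR adjusted p = 3.04e-10), and FSTL1, a secreted relative of follistatin, by 0.98 ± 0.14. Follistatin, FST, which also binds activin and was singled out after its values were seen, had 0.320 to 0.547 CPM with miR-122-5p and 1.37 to 4.90 CPM with the control mimic. Its log2 fold change was -2.70 ± 0.29 (SE; edgeR adjusted p = 1.17e-07), and -1.81 with the GC slope covariate.

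Of the 4 other SMADs, SMAD6, an inhibitor of BMP signalling, rose by 0.77 ± 0.14 (19.6 ± 3.09 CPM with miR-122-5p and 11.5 ± 2.79 CPM with the control mimic; edgeR adjusted p = 6.60e-05), and SMAD1, SMAD5 and SMAD9 were not called (median of the 4 genes 0.31). After correction for GC content and length SMAD6 (0.55) and SMAD5 (0.26, edgeR adjusted p = 0.0237) were higher (median 0.45). The covariate ended the SMAD6 call (0.15, edgeR adjusted p = 0.644). Among 16 adaptors, partners and corepressors 0 were higher and 6 lower (median -0.11), and 1 and 6 after the correction (median -0.01). They included the transcription factor RUNX3, at -0.57 ± 0.07, and the histone acetyltransferase CREBBP, at -0.51 ± 0.12. Of 17 ubiquitin ligases, deubiquitinases and phosphatases 2 were higher and 8 lower (median -0.18), and 6 and 6 after the correction (median -0.05). USP15, a deubiquitinase of receptors and SMADs, fell by 1.52 ± 0.09 (46.3 ± 4.98 CPM with miR-122-5p and 132 ± 15.3 CPM with the control mimic; edgeR adjusted p = 7.48e-12). TRIM33, a SMAD-binding ubiquitin ligase, fell by 0.65 ± 0.08, and the ubiquitin ligase STUB1 rose by 0.91 ± 0.10. After the correction they were at -0.32 and 0.41.

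Genes known to respond to TGF-beta went both ways, with 9 of 23 higher and 6 lower (median 0.04), and 5 and 7 after the correction (median -0.0007). PMEPA1, a TGF-beta-induced inhibitor of the pathway, rose by 0.74 ± 0.08 (23.5 ± 1.36 CPM with miR-122-5p and 14.1 ± 0.986 CPM with the control mimic; edgeR adjusted p = 1.16e-07). TGFBI, a secreted matrix protein named for its induction by TGF-beta, fell by 0.48 ± 0.06 (227 ± 6.16 CPM with miR-122-5p and 317 ± 7.69 CPM with the control mimic), and the collagen gene COL4A1 by 0.49 ± 0.06. These 3 changes were 0.67, -0.46 and -0.61 after correction for GC content and length. Over the 8 lists, 23 of the 24 genes named by rule stayed called in the same direction after that correction and 16 with the GC slope covariate. Those genes had been named for their low p, and among all 7810 called genes 70.2% and 32.4% stayed called in the same direction. Calls lost with the covariate were those of GDF15, BMP6, LTBP4, LTBP2, ACVR2A, NBL1, SMAD6 and CREBBP. The counts of all lists lay beside a background of 24.3% higher and 26.2% lower among all tested genes. After correction for GC content and length, that background was 23.3% higher and 23.5% lower.

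**Figure D4:**
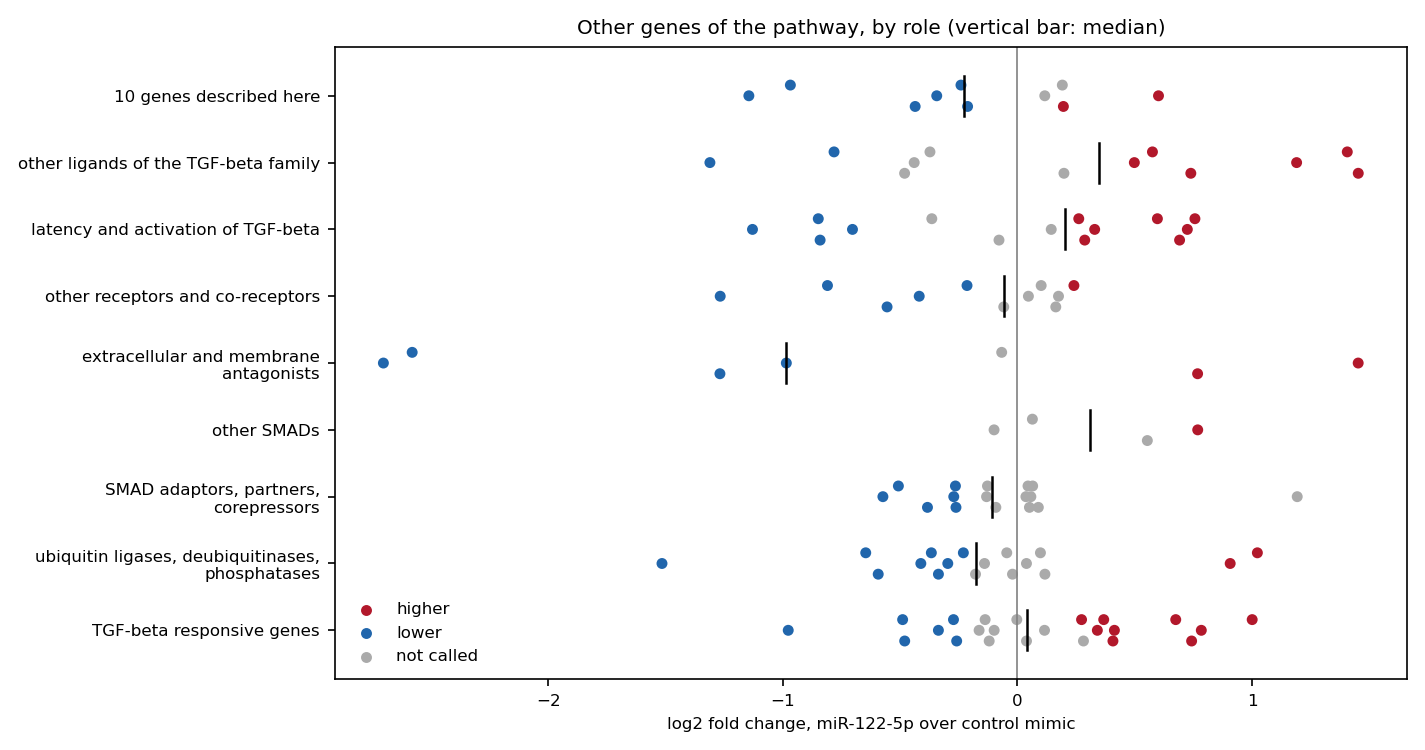
Log2 fold change (miR-122-5p over control mimic) of the 10 genes and of the tested genes of the 8 other lists of the pathway, one point per gene, coloured by call (red higher, blue lower, grey not called at an adjusted p of 0.05), with the median of each row as a vertical bar. The medians run from -0.98 for antagonists to 0.35 for other ligands, where BMP1 is not drawn. Without correction, the other SMADs hold 1 called gene, SMAD6, on the higher side. The adaptors, partners and corepressors hold called genes only on the lower side here, and 1 higher and 6 lower after correction for GC content and length.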

How the data were processed

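Bulk RNA-seq of 12 libraries was used, as gene counts that the authors deposited in a single table. Per the submitters' processing notes, HISAT2 2.0.5, featureCounts 1.5.0-p3 and hg38 were used; the strand setting is not given in the sources used here. Per the labels' protocols, libraries were made with a NEBNext Ultra kit from 1 µg of Trizol-extracted RNA. Columns headed nc with a number were read as the control mimic libraries of that number. The counts as deposited were tested with edgeR 4.0.16 in R 4.3.3 (TMM scaling, filterByExpr, quasi-likelihood test, 6 against 6), with Benjamini-Hochberg adjustment over 15471 genes and a threshold of 0.05. CPM are scaled by TMM factors. The SE of a log2 fold change was derived from the test, as its absolute value divided by the square root of the F statistic. GC content is that of the longest GENCODE 29 transcript. The correction for GC content and length used spline offsets per library, and the covariate was each library's slope of log2 CPM on GC content. DESeq2 1.42.0 and limma 3.58.1, other scalings and filters, a replicate block and libraries left out were alternatives. The fit was tested on simulated data. Libraries of a group differed by more than counting error in every pair (chi-square over its degrees of freedom between 7.84 and 72.95).

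The members and the gene lists were chosen with earlier results of these data known. From each other list, up to 2 genes per direction with the lowest p were named where log2 CPM averaged 1 or more; FST was added after its values were seen. Similar profiles were sought among genes whose log2 CPM averaged 3 or more. One gene that this rule names and one site are not reported here. No protein sequences were used here.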

Additional observations from a re-analysis of the deposited data

Results flagged for a closer look

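Among 68 groups of 6 libraries (34 named genes), 2 held a library far from the rest, where chance alone gives about 1 in 20. SMAD4 stood at 43.95 CPM in control mimic library 1 and at 29.03 to 33.28 CPM in the other control libraries, a gap of 0.715 of the range of the group. FSTL1 stood at 2.27 CPM in miR-122-5p library 3, against 2.90 to 3.04 CPM in the other miR-122-5p libraries, a gap of 0.808 of the range. Without that library, the log2 fold change of FSTL1 was -0.92 (edgeR adjusted p = 2.23e-05).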

How the results depend on the processing

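As reported, 2 of the 10 genes were higher and 6 lower. Those higher came to 1 after correction for GC content and length, alone or with a replicate block, with the GC slope covariate, without control libraries 1 and 6, without control libraries 1, 5 and 6, and at an adjusted p under 0.01. The count of lower genes came to 3 after the correction, alone or with the block, with the covariate and without control libraries 1, 5 and 6. With the correction or the covariate they were INHBA, SMAD3 and TGFB1, and TGFB1 is not among the 6 reported as lower. Without control libraries 1, 5 and 6 they were INHBA, SMAD3 and SKIL. The covariate called 3002 genes in all, and 8 higher and 19 lower among the 105 tested genes of the other lists, against 7810, 29 and 35. These 105 genes include BMP1, which is left out of the ligand counts above. Over all tested genes the covariate called 7.22% higher and 12.2% lower. Leaving out single libraries gave 7235 to 7879 genes in all, 1 to 3 and 4 to 6 of the 10 genes, and 27 to 30 and 31 to 36 of the other genes. Signs turned for TGFB1 (-0.19 after the correction, -0.19 with the block as well, -0.40 with the covariate and -0.059 without control libraries 1, 5 and 6), SMAD2 (0.13 and 0.12 after the correction without and with the block), SMAD7 (-0.0295 and -0.0316) and SMAD4 (0.0714 with the covariate). The cause was not tested. Leaving out control libraries 1, 5 and 6 was chosen after seeing the data, and it removes the lowest TGFB1 values. Same-numbered libraries did not deviate together (r -0.105 to 0.066 over 6 pairs, 1 of them best with its own number), so the numbers were not taken as pairs; the replicate block called 2 and 5 of the 10 genes and 7587 genes in all, and ended the ACVR1 call (edgeR adjusted p = 0.0736). SMAD3, with 72 to 226 counts a library, is the member that depth limits most.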
